A study of Mus musculus with 6 samples.

Results

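miR-210 is a microRNA of low-oxygen tissue, and both mature arms of its hairpin, mmu-miR-210-3p and mmu-miR-210-5p, are described here in mouse spinal cord. They were taken by name and are 2 of the 1482 rows of a table of read counts per mature miRNA. By the labels, the SCI-labelled group (SCI, spinal cord injury) was 3 mice with a laminectomy at T10 followed by a moderate contusion from a 10 g weight dropped 20 mm. The control-labelled group was, by the labels, 3 mice with the T10 laminectomy alone, an operation that both groups share. Which group was injured is in doubt. The column names of the SCI-labelled samples and the injury-response miRNAs, given further on, go against these labels. Cords were collected on day 2, as pieces of about 1 cm centred on T10, and each small RNA library was made from 3 µg of total RNA. Body weight was set at 20 to 25 g, and the labels name no strain, sex or age.

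miR-210 is among the best known targets of HIF, the transcription factor whose HIF1A subunit is destroyed in the presence of oxygen and builds up when oxygen is short. The 3p arm is the one described as functional: in human cells it lowers mRNAs of mitochondrial iron-sulphur cluster assembly and respiration, such as ISCU. The 5p arm is the opposite strand of the same stem and is usually degraded. miR-210 has also been described in red cell precursors.

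The gene Mir210 lies on chromosome 7 in GRCm38.p6, at chr7:141221384-141221493 on the minus strand. No other gene of the RefSeq table or of GENCODE M21 overlaps the hairpin. The nearest gene on the side of lower coordinates was Rassf7, which ends 2725 bases away, and on the other side the predicted gene Gm51460 began 6712 bases away and Phrf1 6983 bases away. The nearest other miRNA gene of the RefSeq table was Mir7063 at 399207 bases, so the hairpin has no close miRNA neighbour. The RefSeq hairpin of 110 bases is shown because every read described below was assigned to 1 of its arms, which are in capitals (5p first, then 3p).
Mir210 hairpin: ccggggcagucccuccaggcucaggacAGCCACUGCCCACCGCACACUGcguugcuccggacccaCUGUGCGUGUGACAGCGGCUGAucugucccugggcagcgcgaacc
The mature sequences follow with the seed, bases 2 to 8, in capitals.
miR-210-3p: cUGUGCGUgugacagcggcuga
miR-210-5p: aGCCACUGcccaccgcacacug

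Each arm has 22 bases, at positions 28 to 49 (5p) and 66 to 87 (3p) of the hairpin, with 16 bases between them. Guanine and cytosine make up 68.2% of the 5p arm and 63.6% of the 3p arm. In the fold of lowest energy predicted by RNAfold, 16 bases of the 5p arm paired with the 3p arm, and 6 of the 7 seed bases of the 3p arm lay opposite 5p positions 14 to 19. The seeds of the arms differ, and each was found in 1 mature mouse miRNA only of the RefSeq table. Of the 1482 rows of the table, 1175 matched a RefSeq mature sequence by name, and no other row among these shares a seed with either arm. The seeds of the remaining rows were not searched.

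Counts over all rows summed to 7899382, 7100472 and 8889977 in SCI-labelled libraries 1, 2 and 3 and to 6595364, 5568491 and 7360149 in control-labelled libraries 1, 2 and 3. The labels and the tissue's known injury response pointed opposite ways. All 5 miRNAs of an injury-response list (miR-21a-5p, miR-223-3p, miR-155-5p, miR-142a-3p and miR-146a-5p) had lower levels under the SCI label and passed the edgeR test (adjusted p under 0.05). Over all tested rows, 23.1% passed in this direction. The list was chosen with earlier results of these data known, so its count is not independent of them. The table's column names for the SCI-labelled samples begin with "Normal". Those for the control-labelled samples begin with "Control", as their labels do, and no column name mentions injury. The groups are therefore called by their labels throughout, and every direction below is that of the labels as deposited. Control-labelled library 3 stood apart from the others of its group on the next principal component after the one that parts the groups (13.7, against -6.37 and -5.04). The 8 neuron markers were read in every library and summed to 32909 to 38455 CPM (reads per 1000000 reads, scaled by TMM, edgeR's trimmed mean of M-values) under the SCI label and 13263 to 16404 CPM under the control label. The sum rests mostly on miR-218-5p (mean 20088 CPM under the SCI label and 7503 CPM under the control label) and miR-128-3p (11993 and 4350 CPM). Of the 8, 3 were past the edgeR test and higher under the SCI label and the other 5 did not pass, miR-124-3p (log2 -0.52) and miR-132-3p (-0.09) among them. Over all tested rows, 16.3% were past the test and higher. The 4 oligodendrocyte markers summed to 10467 to 11330 CPM under the SCI label and 9140 to 12102 CPM under the control label.

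Both arms of miR-210 had lower levels in the SCI-labelled than in the control-labelled libraries. The main arm, miR-210-3p, was read 213, 173 and 226 times in SCI-labelled libraries 1, 2 and 3, against 358, 358 and 668 times in control-labelled libraries 1, 2 and 3. Scaled by TMM, these were 26.4, 26.8 and 25.6 CPM in the SCI-labelled libraries and 57.3, 64.8 and 78.7 CPM in the control-labelled libraries. The groups did not overlap, as in 28.0% of all tested rows in this direction, and the SCI-labelled libraries were nearly equal while the control-labelled ones spread. On this scale miR-210-3p averaged 26.3 ± 0.616 CPM in the SCI-labelled and 66.9 ± 10.8 CPM in the control-labelled libraries (SD, n = 3 each). The log2 change was -1.35 with a standard error (SE) of 0.20, a 2.55-fold lower level under the SCI label (edgeR quasi-likelihood test, adjusted p = 0.00135 over 614 rows, of which 23.1% passed in this direction). In bulk tissue, fewer cells that make a miRNA and less of it per cell cannot be told apart.

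The minor arm, miR-210-5p, was read 9, 4 and 7 times in SCI-labelled libraries 1, 2 and 3, against 31, 30 and 23 times in control-labelled libraries 1, 2 and 3. Scaled, these were 1.12, 0.620 and 0.793 CPM in the SCI-labelled and 4.96, 5.43 and 2.71 CPM in the control-labelled libraries. The groups again did not overlap, although control-labelled library 3 lay below the others of its group. miR-210-5p averaged 0.843 ± 0.251 CPM in the SCI-labelled and 4.37 ± 1.46 CPM in the control-labelled libraries (SD, n = 3 each). The log2 change was -2.32 (SE 0.42), a 4.98-fold lower level under the SCI label, with an adjusted p of 0.0032 by edgeR. Its filter matters: a row had to reach 1.38 CPM in enough libraries, which miR-210-5p did in 3 control-labelled and 0 SCI-labelled libraries, so that it entered the test through the group in which it is high. Without the filter, over 1411 rows, the log2 change was -2.26 (edgeR adjusted p = 4.09e-05). The smaller adjusted p is not read as stronger support, since this fit moved such values widely. By edgeR, that of miR-21a-5p went from 7.02e-05 to 4.28e-39, and that of miR-26b-5p rose from 0.0194 to 0.075.

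These calls are read against their background. Of the 614 rows tested, 142 (23.1%) were past the test with lower levels under the SCI label and 100 (16.3%) with higher ones. A fall of miR-210 in the SCI-labelled group was thus shared with 142 rows, members included. By size of fall, miR-210-5p stood at rank 39 and miR-210-3p at rank 81 of 614. The median log2 change of all tested rows was -0.07. Without SCI-labelled library 3 the rows past the test were 87 lower and 54 higher, against 142 lower and 100 higher with all libraries; without SCI-labelled library 1 there were 63 higher and without control-labelled library 3 there were 152. Without control-labelled library 3, miR-210-3p had a log2 change of -1.17 (edgeR adjusted p = 0.00035) and miR-210-5p of -2.54 (edgeR adjusted p = 0.000156).

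**Figure D1:**
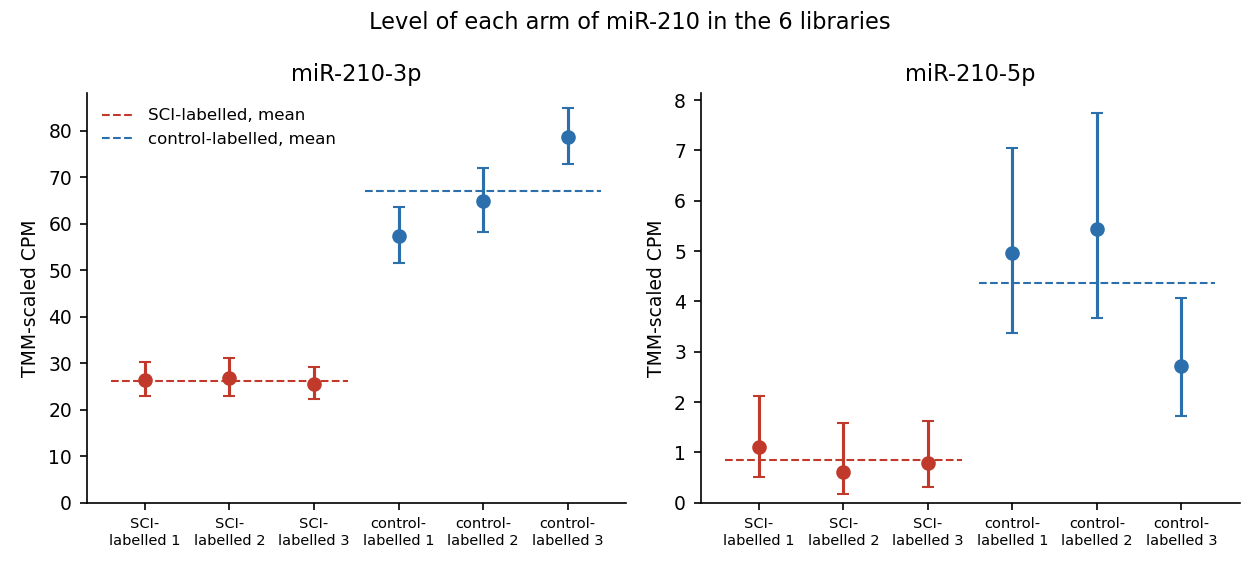
TMM-scaled CPM of miR-210-3p and miR-210-5p in each of the 6 libraries, on linear axes that start at 0; bars are exact 95% Poisson intervals for counting error and dashed lines are group means. The 3 SCI-labelled libraries lie at 25.6 to 26.8 for the 3p arm, and control-labelled library 3 is the highest of its group for 3p and the lowest for 5p.

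**Figure D2:**
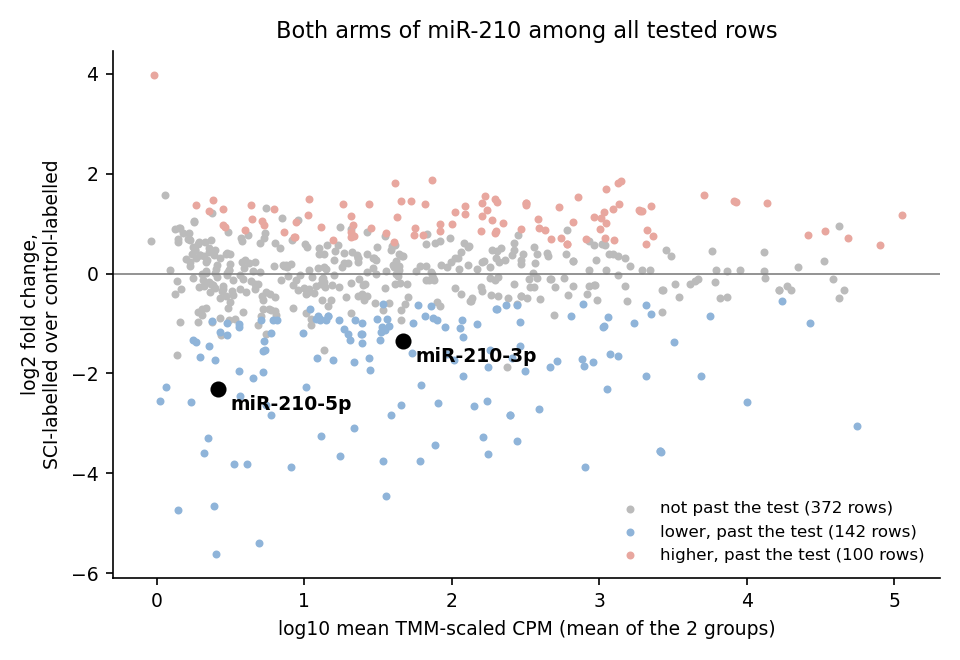
Log2 fold change (SCI-labelled over control-labelled) against the log10 mean of TMM-scaled CPM for the 614 tested rows, coloured by call. miR-210-3p at -1.35 and miR-210-5p at -2.32 lie within the cloud of 142 rows that were lower and past the test.

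The precision of the 2 arms differed with their depth. For miR-210-3p the SCI-labelled libraries varied by 2.35% (coefficient of variation, n = 3) and their counting intervals overlapped (23.0 to 30.2, 23.0 to 31.1 and 22.4 to 29.2 CPM in libraries 1, 2 and 3). The control-labelled libraries varied by 16.2%. The interval of control-labelled library 3 (72.8 to 84.9 CPM) lay above those of library 1 (51.5 to 63.6) and library 2 (58.3 to 71.9), so that its excess over them was larger than counting error. For miR-210-5p the coefficient of variation was 29.8% in the SCI-labelled and 33.3% in the control-labelled group. A count of 4 in SCI-labelled library 2 has an interval of 0.169 to 1.59 CPM, which contains the values of the other SCI-labelled libraries. These exact Poisson and Clopper-Pearson intervals are at 95% and cover counting error only, since the reads carry no molecular identifiers.

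By rank of abundance, miR-210-3p was a miRNA of middling level in the cord. It stood at rank 313, 313 and 310 in SCI-labelled libraries 1, 2 and 3, which had reads in 1041, 1001 and 1076 rows. It stood at rank 265, 250 and 244 in control-labelled libraries 1, 2 and 3, which had reads in 1062, 1038 and 1086 rows. miR-210-5p stood between rank 607 and 666 in the SCI-labelled and between 464 and 532 in the control-labelled libraries. The ranks use read counts, and the arms have equal length.

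Reads of both arms came to 222, 177 and 233 in SCI-labelled libraries 1, 2 and 3, and to 389, 388 and 691 in control-labelled libraries 1, 2 and 3. With the arms of every hairpin summed and scaling recomputed on that table, the log2 change of miR-210 was -1.28 (SE 0.18), a 2.44-fold lower level under the SCI label, with an adjusted p of 0.00099 by edgeR. Of 443 hairpins tested in this way, 20.5% were past the test with lower levels under the SCI label and 20.3% were past it and higher. The value of -1.28 depends on the recomputed scaling. With the scaling of single rows, an alternative chosen after seeing the data, the summed arms had a log2 change of -1.40.

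The balance between the arms was then compared. The 5p arm held 4.05%, 2.26% and 3.00% of the miR-210 reads in SCI-labelled libraries 1, 2 and 3, against 7.97%, 7.73% and 3.33% in control-labelled libraries 1, 2 and 3. Control-labelled library 3 fell among the SCI-labelled libraries, while the others of its group lay above them all. Its Clopper-Pearson interval (2.12% to 4.95%) did not overlap that of control-labelled library 1 (5.48% to 11.1%) or 2 (5.28% to 10.9%). The SCI-labelled intervals were wide, at 1.87% to 7.56%, 0.619% to 5.68% and 1.22% to 6.09% in libraries 1, 2 and 3, and overlapped most of this range. As a ratio, the 3p arm had 23.7, 43.3 and 32.3 reads per 5p read in the SCI-labelled libraries, against 11.5, 11.9 and 29.0 in the control-labelled libraries.

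**Figure D3:**
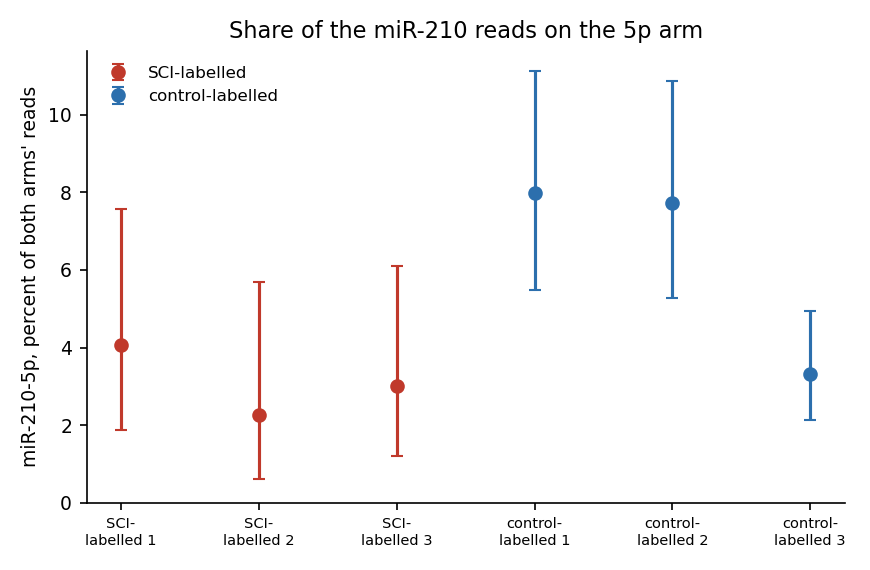
Share of the reads of both miR-210 arms that fell on the 5p arm (percent) in each library, with 95% Clopper-Pearson intervals. Control-labelled libraries 1 and 2 lie at 7.97% and 7.73%, and control-labelled library 3, at 3.33%, lies within the range of the SCI-labelled libraries.

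The mean share of the 5p arm was 3.11% ± 0.901 in the SCI-labelled and 6.34% ± 2.61 in the control-labelled libraries (SD, n = 3 each). The difference of -3.24 percentage points had an exact two-sided permutation p = 0.2, where 0.1 is the smallest value that 3 libraries against 3 can give. In the count model across hairpins, the 5p arm changed by -0.97 on the log2 scale relative to the 3p arm (SE 0.37, 95% interval -1.77 to -0.17). This did not pass edgeR's diffSpliceDGE test over the 179 hairpins with both arms tested (adjusted p = 0.0649, unadjusted 0.0214). Without control-labelled library 3 it did, at log2 -1.36 (edgeR adjusted p = 0.00447). A change of arm use in miR-210 thus rested on whether that library was counted. Without that library more single rows passed edgeR as well, 179 lower and 152 higher, against 142 lower and 100 higher with all libraries. The 5p arm had reached the filter's level in 3 control-labelled and 0 SCI-labelled libraries, which favours a lower 5p arm under the SCI label. With all libraries, 30.2% of the 179 hairpins were past the diffSpliceDGE test. The share without control-labelled library 3 is not given here. The median size of change with all libraries was 0.65 on the log2 scale, which places miR-210 at rank 54.

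Set beside other hairpins, miR-210 was of ordinary arm bias. Its minor arm held 4.95% of the reads over all libraries, against a median of 9.85% over the 179 hairpins, and 68 hairpins had a smaller minor arm share. The shift in control-labelled library 3 was less ordinary. There the log2 ratio of minor to major arm of miR-210 differed by -1.30 from the mean of control-labelled libraries 1 and 2, while the median difference over hairpins was 0.12. In 11 of the 179 hairpins, miR-210 included, this difference was at least as far below 0.

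In control-labelled library 3 the values of the arms thus lay on opposite sides of the others of that group. miR-210-3p was 1.29 times as high in library 3 as in the mean of libraries 1 and 2, and miR-210-5p was 0.521 times as high. The counting interval of miR-210-5p in library 3 (1.72 to 4.06 CPM) overlapped those of library 1 (3.37 to 7.05) and library 2 (3.66 to 7.75). Such an overlap is not a test of a difference, so whether the lower value of miR-210-5p there exceeds counting error was not tested. Among the 142 rows lower in the SCI-labelled libraries, control-labelled library 3 was the highest of its group in 39 rows and the lowest in 83. miR-210-3p belonged to the smaller set and miR-210-5p to the larger one.

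Markers of other cells differed between the groups as well. Over all tested rows, 23.1% passed the edgeR test with lower levels under the SCI label, the background for the lists of this paragraph. Of the red cell list, 6 of 6 tested members passed the test with lower levels under the SCI label, and none was at 0 in any library. Of these, miR-486a-5p, miR-486a-3p and miR-486b-3p had nearly the same mean levels, at 409, 410 and 401 CPM in the SCI-labelled and 4859, 4781 and 4741 CPM in the control-labelled libraries. Whether the same reads were counted in more than 1 of these rows was not tested, so the count of members and their sum may not rest on separate reads. The summed level of that list ran from 3024 to 6331 CPM in the SCI-labelled and from 14025 to 43094 CPM in the control-labelled libraries. Within the control-labelled group it was 43094, 39874 and 14025 CPM in libraries 1, 2 and 3, with the lowest value in the library in which miR-210-5p was lowest and miR-210-3p highest. The sum rests mostly on miR-451a (26645, 18555 and 6411 CPM in control-labelled libraries 1, 2 and 3) and the miR-486 rows. In the same libraries miR-144-3p (243, 256 and 228 CPM) and miR-144-5p (536, 545 and 431 CPM) differed far less, so the size of the drop is not shared by the whole list. The white cell list had 5 of 5 members lower, with none at 0, and sums of 315 to 436 CPM in the SCI-labelled and 1728 to 2975 CPM in the control-labelled libraries. These members include both arms of miR-223 and both of miR-142a, and miR-223-3p and miR-142a-3p are also on the injury-response list. They are thus not separate pieces of evidence. The fibroblast list had 3 of 3 lower, with none at 0, and sums of 555 to 1055 CPM in the SCI-labelled and 1830 to 3299 CPM in the control-labelled libraries. It holds both arms of miR-199a.

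The endothelial list had 0 of 2 members past the edgeR test, and the oligodendrocyte list 0 of 4. Over all tested rows, 39.4% passed in either direction. Skeletal muscle markers, 0 of 4 past the test, summed to 37774 CPM in control-labelled library 3, against 8283 and 11916 in the others of that group and 9817 to 20423 in the SCI-labelled libraries. At an unadjusted edgeR p under 0.05, by DESeq2 and by limma voom the count was also 0 in each of these 3 lists. Without control-labelled library 3 edgeR called 1 endothelial, 1 oligodendrocyte and 2 skeletal muscle members, in directions not listed here. Over all rows that fit called 179 lower and 152 higher, against 142 lower and 100 higher with all libraries. The part of these cells in the values of miR-210 was not tested.

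The rows most like miR-210-3p were sought by the root mean square (RMS) difference between log2 profiles over the 6 libraries, each centred on its own mean, among the 269 named rows with a mean of at least 50 CPM. The closest was miR-195a-5p, at an RMS difference of 0.045 on the log2 scale. It stood at 68.3, 72.1 and 68.2 CPM in SCI-labelled libraries 1, 2 and 3 and at 141, 160 and 200 in control-labelled libraries 1, 2 and 3. Like miR-210-3p it was flat in the SCI-labelled group and highest in control-labelled library 3. Next came miR-335-5p (RMS 0.128), miR-221-3p (0.159), miR-361-5p (0.217), miR-30a-5p (0.226), miR-23b-3p (0.230), miR-652-3p (0.275) and miR-378a-3p (0.302). All 8 had lower levels under the SCI label, with log2 changes of -1.65 to -0.86, which the search itself favours. The median RMS difference from miR-210-3p over the rows searched was 0.825.

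For miR-210-5p the closest rows were other ones. They were miR-25-3p (RMS 0.282), miR-106b-5p (0.300) and miR-106b-3p (0.325), which share a cluster in the Mcm7 gene, then miR-140-3p (0.338) and miR-16-5p (0.342). miR-25-3p stood at 716, 804 and 907 CPM in SCI-labelled libraries 1, 2 and 3 and at 3925, 4326 and 1771 in control-labelled libraries 1, 2 and 3. It shares with miR-210-5p the low value of control-labelled library 3, which the search itself favours. Over the mean of control-labelled libraries 1 and 2, library 3 stood at 0.429 (miR-25-3p), 0.443 (miR-106b-3p) and 0.620 (miR-140-3p). For miR-106b-5p (0.946) and miR-16-5p (0.948) library 3 was close to that mean. The arms of miR-210 differed from each other by 0.573, below the median of 0.825 over the rows searched. Among the 614 tested rows, 155 were closer to miR-210-3p than its own 5p arm was. The profile of miR-210-5p rests on 4 to 31 reads a library, so counting error is part of its distances. Of the 13 rows named as most like the arms, 11 have a RefSeq sequence, and 0 of the 11 share a seed with either arm. The closest row to the 3p arm and one of those close to the 5p arm do share a seed with each other, in capitals, and are shown for that reason.
miR-195a-5p: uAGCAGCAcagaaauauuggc
miR-16-5p: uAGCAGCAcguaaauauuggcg
miR-16-5p fell by 2.31 on the log2 scale in the SCI-labelled group and miR-195a-5p by 1.27.

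**Figure D4:**
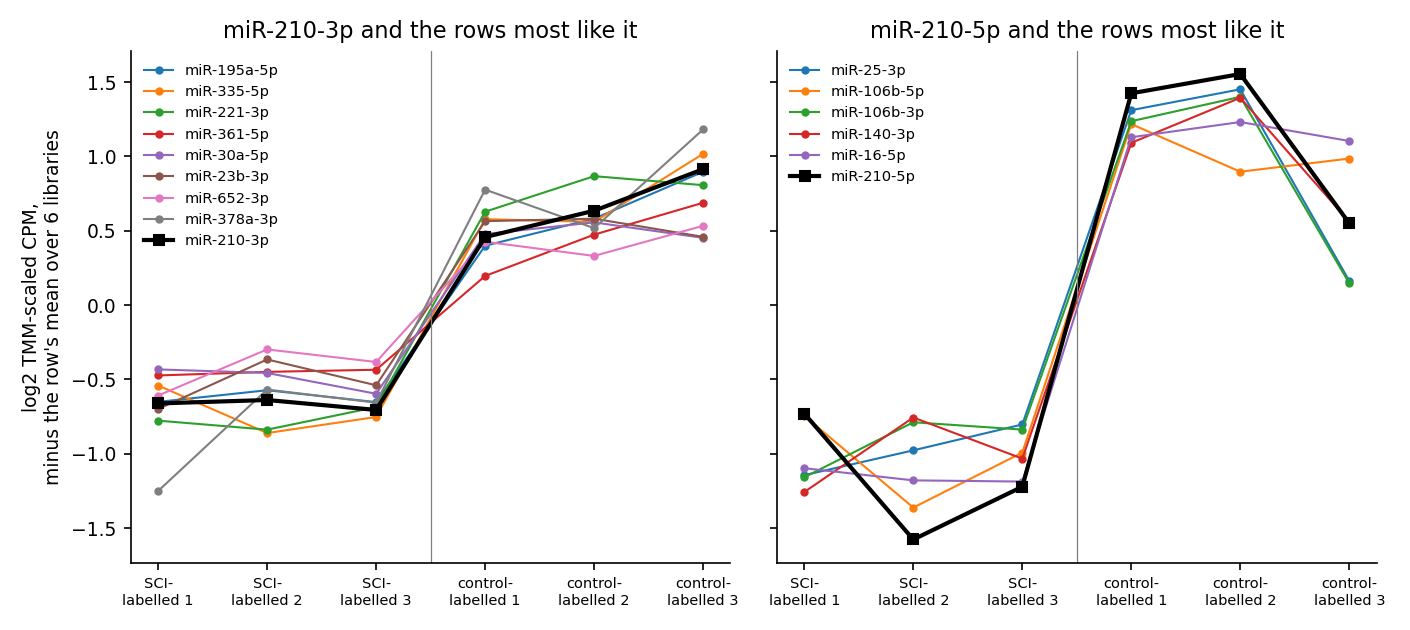
Log2 TMM-scaled CPM of miR-210-3p (left) and miR-210-5p (right) in black, minus the row's mean over 6 libraries, with the 8 and 5 rows most like each in colour. Lines join the libraries of 1 row and carry no order. Control-labelled library 3 is high for miR-195a-5p and miR-335-5p and low for miR-25-3p and miR-106b-3p. It lies near the others of its group for miR-106b-5p and miR-16-5p.

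Other miRNAs of the hypoxia response were read beside miR-210. Over all 614 tested rows, 23.1% were past the edgeR test and lower under the SCI label, and 16.3% were past it and higher. A list of 14 miRNAs described as induced by low oxygen or HIF, mostly in cultured human cells, had 8 members past the test with lower levels under the SCI label, 0 higher and 6 not past it (edgeR; 0 were higher at an unadjusted p under 0.05, or by DESeq2 or limma voom). Its median log2 change was -0.73, against -0.07 for all tested rows. Without SCI-labelled library 1 there were 5 lower, and without control-labelled library 3 there were 9 lower, with miR-24-3p past the test, and 1 higher, miR-181c-5p. The members that fell include miR-21a-5p and miR-155-5p, which are also on the injury-response list.

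miR-21a-5p, which is widely reported to be induced in injured tissue, had the largest fall of the list. It stood at 12741, 11198 and 12069 CPM in SCI-labelled libraries 1, 2 and 3 and at 129160, 95985 and 75102 in control-labelled libraries 1, 2 and 3 (log2 -3.06, SE 0.24; edgeR adjusted p = 7.02e-05). miR-155-5p, a miRNA of activated immune cells, had a log2 change of -2.23 (SE 0.30; edgeR adjusted p = 0.00086). miR-322-5p, the mouse counterpart of a human miRNA induced by hypoxia in endothelium, had -1.77 (SE 0.27; edgeR adjusted p = 0.00157).

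The list was not uniform, and members with the same seed had different calls. miR-23a-3p fell by 1.86 and miR-23b-3p by 1.06 on the log2 scale, and miR-27a-3p, whose gene adjoins that of miR-23a, fell by 0.85. miR-24-3p of the same cluster had -0.33 and did not pass the test (edgeR adjusted p = 0.228). miR-26b-5p fell by 0.62 while miR-26a-5p, with the same seed, had 0.14 (adjusted p = 0.515). miR-103-3p fell by 0.85 while miR-107-3p, again with the same seed, had -0.45 (adjusted p = 0.249). The differences within these pairs were not tested. miR-181a-5p (0.07), miR-181b-5p (0.07) and miR-181c-5p (0.32) did not pass. The calls of miR-26b-5p, miR-27a-3p and miR-103-3p were each lost without some single library, with edgeR adjusted p-values up to 0.101, 0.0695 and 0.0618, and that of miR-26b-5p also with the upper quartile (0.0766), no filter (0.075) or the replicate block (0.0529).

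A further list held 10 miRNAs described as acting on the mRNA of HIF1A or of FIH, the enzyme that blocks HIF activity in oxygen. Of its 9 tested members, 6 had lower levels under the SCI label, 1 was higher and 2 did not pass the edgeR test, with a median log2 change of -1.75. Over all tested rows, 23.1% were past this test and lower and 16.3% were past it and higher. miR-18a-5p (-2.84), miR-20a-5p (-2.71) and miR-17-5p (-2.55) belong to the miR-17-92 cluster and are described as acting on HIF1A. miR-31-5p, which acts on FIH, had -2.84 and miR-199a-5p, also on the fibroblast list, had -1.75. miR-22-3p fell by 0.61, a call lost in 5 of the 6 fits that leave out a library (edgeR adjusted p up to 0.211) and also with the upper quartile (0.113), no filter (0.101) or the replicate block (0.087). miR-135b-5p, described as acting on FIH, was the member that was higher (log2 1.44, SE 0.28; edgeR adjusted p = 0.00453). miR-138-5p (0.61) and miR-20b-5p (-0.70) did not pass, except without control-labelled library 3 (0.94 and -0.80) and, for miR-138-5p, with the upper quartile (0.74). miR-429-3p was in the table and was too low to be tested.

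**Figure D5:**
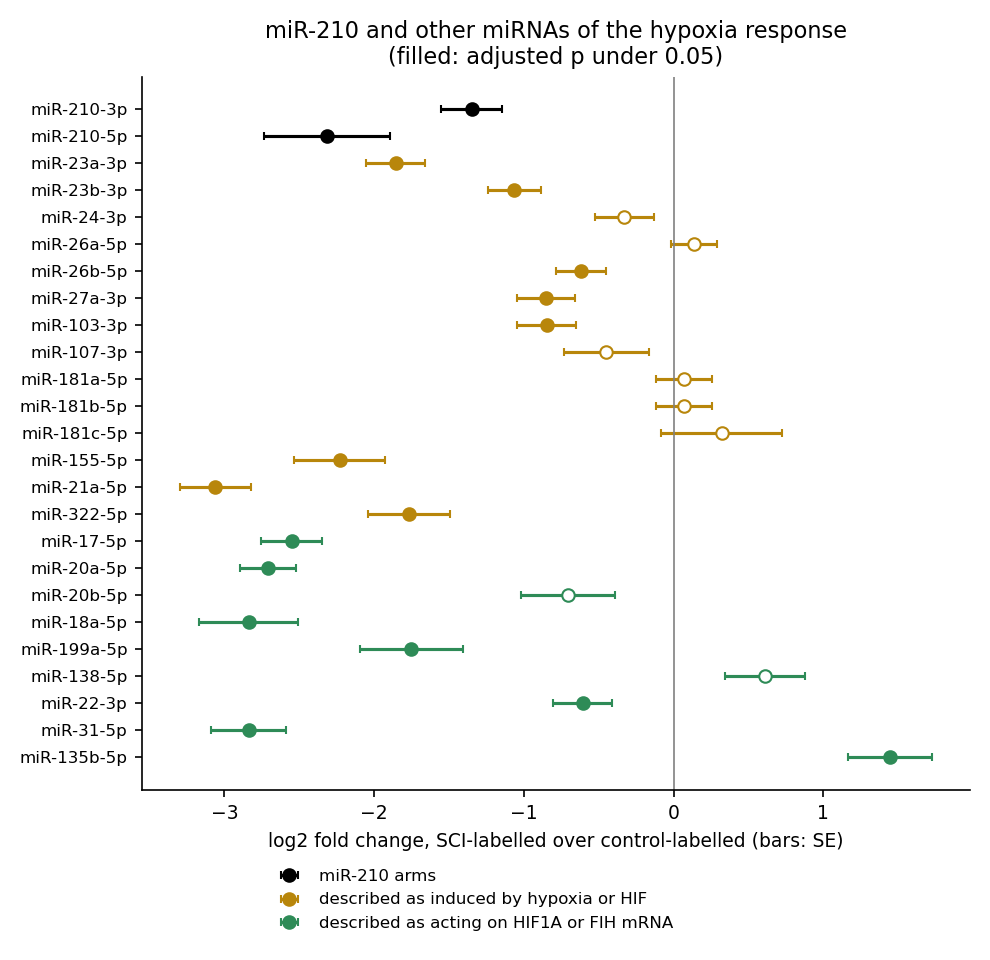
Log2 fold changes, SCI-labelled over control-labelled, with standard errors for the arms of miR-210 (black), the 14 miRNAs described as induced by hypoxia or HIF (gold) and the 9 tested miRNAs described as acting on HIF1A or FIH mRNA (green); filled points passed the edgeR test. miR-21a-5p at -3.06 is the lowest of the gold points, and miR-135b-5p at 1.44 is the one filled point above 0.

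Within the list described as induced by hypoxia, the log2 change of miR-210-3p (-1.35) lay between those of miR-23b-3p (-1.06) and miR-322-5p (-1.77), and that of miR-210-5p (-2.32) just beyond that of miR-155-5p (-2.23).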

How the data were processed

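Small RNA was sequenced from 6 mouse cords. The authors deposited raw read counts per miRNA and a TPM column, per the file headers; the deposited TPM equals the count per 1000000 reads (CPM) of its column to within 2.74e-05, with no length term. Bowtie and mm10 are named in the submitters' processing notes; the sources used here state neither a miRBase release nor a rule for reads that match several miRNAs. Sample descriptions gave each column its sample. Per the labels' design text, each library is read as a mouse of its own.

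Counts were tested in R 4.3.3 with edgeR 4.0.16: filterByExpr with a minimum count of 10 (614 of 1482 rows), TMM scaling, robust quasi-likelihood test on group alone, Benjamini-Hochberg adjustment over all tested rows, threshold 0.05. Fold changes are SCI-labelled over control-labelled; standard errors are the change over the square root of F. Arm use was tested with diffSpliceDGE. DESeq2 1.42.0, limma 3.58.1 (voom, and log2 TPM with pseudocounts of 0.1, 1 and 10), other scalings, no filter, a replicate block and leaving out each library were alternatives. The steps were tested on simulated data.

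Likeness used log2 CPM with a prior count of 2. Named rows are the members, the 8 rows most like miR-210-3p, the 5 most like miR-210-5p, the hypoxia lists and cell markers; the members and lists were chosen with earlier results of these data known. Sequences and their positions are from RefSeq on GRCm38.p6, the assembly that mm10 denotes; 35 of 38 named miRNAs matched. The fold is from RNAfold 2.7.2. Every pair of libraries differed by more than sampling noise.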

Additional observations from a re-analysis of the deposited data

How the results depend on the processing

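The lower level of both arms in the SCI-labelled libraries kept its direction and its call in all 17 alternatives run for each. The alternatives use the same reads and are not independent. In the main fit miR-210-5p reached the filter's level in 3 control-labelled and 0 SCI-labelled libraries. miR-210-3p ranged from -1.45 to -1.14 (log2). miR-210-5p ranged from -2.54 to -0.41, the last with a pseudocount of 10, which exceeds its level. The median of all rows moved from -0.07 with TMM to 0.04 with the upper quartile, where the arms stood at -1.23 (3p) and -2.21 (5p).

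Leaving out 1 library at a time gave log2 changes of -1.38 to -1.17 (3p), -2.54 to -2.11 (5p), -1.45 to -1.22 (arms summed) and -1.36 to -0.75 (5p relative to 3p), and a difference in 5p share of -4.74 to -2.42 percentage points. It gave 54 to 152 rows called higher and 87 to 179 called lower, and for the list described as induced by hypoxia 5 to 9 lower and 0 to 1 higher. 5p relative to 3p passed its test only without control-labelled library 3 (-1.36). Below the threshold, miR-181a-5p and miR-181b-5p turned to -0.026 and -0.021 with the library total, and miR-181a-5p ranged from -0.0033 to 0.24 with 1 library left out.

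The replicate numbers of the titles are not stated to pair the samples. Deviations of same-numbered libraries correlated at -0.257, 0.172 and -0.178, and those of differently numbered ones at -0.216 to 0.330. With so few libraries, these values cannot decide whether the samples were paired. With the replicate block the log2 changes were -1.34 (3p), -2.29 (5p), -1.28 (arms summed) and -0.95 (5p relative to 3p). The block changed no call of these. With the scaling of single rows, an alternative chosen after seeing the data, the arms summed stood at -1.40. The 5p arm rests on 4 to 31 reads a library, against 173 to 668 for the 3p arm.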
